A study of Mus musculus with 9 samples.

Results

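The cathepsins are the main proteases of the lysosome, and 10 of their genes were followed: Ctsk, Ctsa, Ctsb, Ctsc, Ctsd, Ctsf, Ctsh, Ctsl, Ctss and Ctsz. They are 10 of the 19058 genes in the expression table. They were chosen by gene symbol, with Ctsk set against the other 9 and selected on its FPKM in all 9 libraries, so the differences between groups below describe the genes and are not tests of them. The cells were primary Leydig cells, the androgen-producing cells between the seminiferous tubules, taken from the testis of wild-type mice. RNA was sequenced from 3 control libraries, 3 libraries of cells exposed to triphenyl phosphate (TPhP) and 3 libraries of cells exposed to diphenyl phosphate (DPhP). TPhP is used as a flame retardant and plasticiser, and DPhP is a metabolite that lacks a phenyl ester of it. The sources used here give no strain, age, dose, exposure time or control vehicle, nor whether libraries of the same group are from different animals or cultures. Where they are not, a p-value covers only the spread from library to library, possibly of technical origin. Expression was given as FPKM (fragments scaled to transcript length and to the mapped total), which allows levels to be compared between genes. The read depth is unknown, so no counting error could be attached to a value.

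Cathepsins are made as inactive precursors, tagged with mannose 6-phosphate in the Golgi, carried to the lysosome and activated there at acid pH. Most are cysteine proteases related to papain (Ctsb, Ctsc, Ctsf, Ctsh, Ctsk, Ctsl, Ctss and Ctsz), whereas Ctsd is an aspartic protease and Ctsa a serine carboxypeptidase. Ctsk is best known as the collagen-degrading enzyme that osteoclasts secrete onto bone, and in the rat testis Ctsl is a secreted product of Sertoli cells.

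Ctsk was the lowest of the 10 genes in control and stood above Ctsc and Ctsf with DPhP, in all 3 libraries. Its level was 0.39, 0.42 and 0.36 FPKM in the control libraries, 0.46, 0.43 and 0.32 FPKM in the TPhP libraries, and 71.68, 72.92 and 71.84 FPKM in the DPhP libraries. The control and TPhP libraries overlapped, and every DPhP library lay far above both groups. The group means were 0.390 ± 0.030 FPKM in control, 0.403 ± 0.0737 FPKM with TPhP and 72.1 ± 0.674 FPKM with DPhP (SD, n = 3). The DPhP mean was 185 times the control mean. On the scale of log2(FPKM + 1), which shrinks the change of a gene this low in control, the difference from control was 5.72 ± 0.05 (SE) with DPhP and 0.01 ± 0.05 with TPhP. Among the 12369 genes tested, which reached 1 FPKM or more in 3 or more libraries, the DPhP difference of Ctsk was the second largest rise, after that of the predicted gene Gm7429. Ctsk met this minimum only through the DPhP libraries, so it had to differ in order to be counted. Of the 19058 genes in the table it was number 13291 by mean level in control and number 936 with DPhP. These are bulk libraries, in which a change in the share of cells of a type and a change in RNA per cell cannot be told apart.

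**Figure D1:**
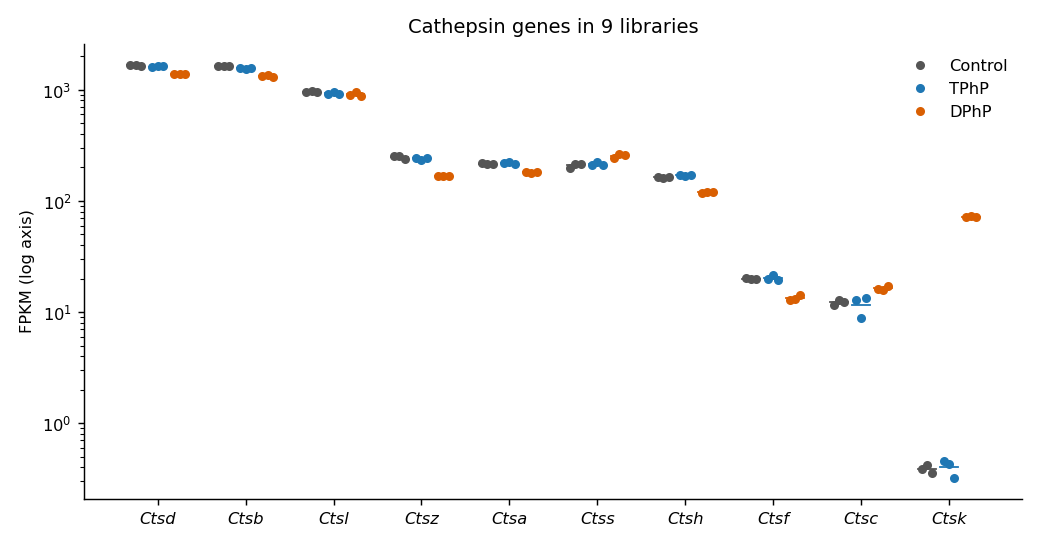
FPKM of the 10 cathepsin genes (vertical axis, log scale) in each library, ordered by control mean. Points are libraries and short lines are group means (n = 3). Ctsk lies between 0.32 and 0.46 FPKM in the 6 control and TPhP libraries and between 71.68 and 72.92 FPKM in the DPhP libraries, while the other 9 genes shift far less.

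Ctsk lies on chromosome 3 (GRCm38.p6, chr3:95499210-95509387), and Ctss, which cleaves the invariant chain of MHC class II in antigen-presenting cells, starts 17399 bases beyond its end (chr3:95526786-95556405). Ctss is also the member whose protein is closest to that of Ctsk, with 58.0% identical residues against 48.8% for Ctsl, 42.8% for Ctsh and 39.5% for Ctsf, by alignment of the translated coding sequences. The level of Ctss was 199.38, 213.84 and 213.80 FPKM in control, 211.25, 223.04 and 208.59 FPKM with TPhP, and 241.70, 266.10 and 257.02 FPKM with DPhP. Its DPhP libraries were all above both other groups, by 22.0% of the control mean, a log2 difference of 0.29 ± 0.04 (SE). Ctsk therefore went from a level between 0.168% and 0.196% of that of Ctss in control to between 27.4% and 29.7% of it with DPhP. The promoter windows of both genes (RefSeq, GRCm38.p6, plus strand, 250 bases before to 50 bases after the annotated start) are shown because these neighbours were both higher with DPhP. Neither holds any of the motifs searched, so no base is in capitals.
Ctsk (chr3:95498960-95499259): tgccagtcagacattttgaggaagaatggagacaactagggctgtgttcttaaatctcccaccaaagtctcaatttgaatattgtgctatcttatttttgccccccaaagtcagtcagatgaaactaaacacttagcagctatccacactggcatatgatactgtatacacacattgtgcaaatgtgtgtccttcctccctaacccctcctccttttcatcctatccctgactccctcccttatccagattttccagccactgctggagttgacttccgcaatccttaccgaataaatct
Ctss (chr3:95526536-95526835): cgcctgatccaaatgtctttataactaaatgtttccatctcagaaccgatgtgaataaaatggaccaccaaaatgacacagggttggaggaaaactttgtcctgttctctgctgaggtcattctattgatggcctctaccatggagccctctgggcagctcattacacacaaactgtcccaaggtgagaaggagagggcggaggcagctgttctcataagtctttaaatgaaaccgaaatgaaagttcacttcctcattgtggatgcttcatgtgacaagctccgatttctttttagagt
Both windows are poor in G and C, with 43.7% for Ctsk and 44.0% for Ctss against a median of 52.7% over 32851 annotated promoter windows. The motifs were CACGTG, the core of sites bound by the lysosomal gene regulator TFEB and many other factors, TCACGTG, a longer form that contains it, and TGANTCA, the AP-1 site, each on both strands. A missing match says only that these letters are not in this window.

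Ctsc, the dipeptidyl peptidase that activates serine proteases of immune cells, was, with Ctsk and Ctss, the third member whose DPhP libraries all lay above the control libraries. Its level was 11.68, 12.89 and 12.31 FPKM in control, 12.74, 8.88 and 13.38 FPKM with TPhP, and 16.26, 15.80 and 17.27 FPKM with DPhP. The DPhP difference was 33.8% of the control mean (log2 0.39 ± 0.11 SE). TPhP replicate 2 stood below all other libraries, and the TPhP difference of -0.09 became 0.08 without it.

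The 3 most abundant cathepsins were the aspartic protease Ctsd, the cysteine protease Ctsb, which cuts both within proteins and from their carboxyl end, and the endopeptidase Ctsl. Ctsd measured 1679.11, 1654.23 and 1648.23 FPKM in control, 1588.13, 1624.35 and 1624.92 FPKM with TPhP, and 1376.69, 1394.31 and 1387.44 FPKM with DPhP. Ctsb measured 1628.43, 1646.85 and 1634.71 FPKM in control, 1557.30, 1538.62 and 1577.44 FPKM with TPhP, and 1327.52, 1357.93 and 1309.34 FPKM with DPhP. In both genes the 3 groups did not overlap, with DPhP lowest and TPhP between it and control. The DPhP means were 16.5% lower for Ctsd and 18.6% lower for Ctsb, and the TPhP means 2.9% and 4.8% lower. Ctsl differed from this pair. It measured 945.44, 973.01 and 948.41 FPKM in control, 922.95, 954.10 and 920.72 FPKM with TPhP, and 898.36, 948.22 and 875.23 FPKM with DPhP. DPhP replicate 2 lay within the control range, and the log2 difference of -0.08 ± 0.03 (SE) turned to 0.01 after rescaling every library to a common sum and to 0.03 after quantile normalization. The level of Ctsd carries an uncertainty, since only 68.7% of the 75-base stretches of its transcripts are found in no other gene, the rest being shared with the predicted gene Gm49369. For Ctsl the share was 94.8%, and for each of the other 8 genes, Ctsk included, it was 100%.

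The promoter windows of Ctsd (minus strand) and of Ctsa (plus strand, the second of its annotated starts) are shown because they hold the motif TCACGTG, in capitals with any flanking base that extends the match on the other strand.
Ctsd (chr7:142387778-142388077): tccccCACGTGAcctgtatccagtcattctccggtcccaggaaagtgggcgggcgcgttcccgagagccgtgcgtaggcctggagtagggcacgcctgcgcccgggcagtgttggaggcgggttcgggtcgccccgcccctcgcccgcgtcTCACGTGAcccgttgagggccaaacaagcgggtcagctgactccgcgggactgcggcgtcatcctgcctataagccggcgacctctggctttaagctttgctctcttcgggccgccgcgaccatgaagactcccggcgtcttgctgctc
Ctsa (chr2:164833523-164833822): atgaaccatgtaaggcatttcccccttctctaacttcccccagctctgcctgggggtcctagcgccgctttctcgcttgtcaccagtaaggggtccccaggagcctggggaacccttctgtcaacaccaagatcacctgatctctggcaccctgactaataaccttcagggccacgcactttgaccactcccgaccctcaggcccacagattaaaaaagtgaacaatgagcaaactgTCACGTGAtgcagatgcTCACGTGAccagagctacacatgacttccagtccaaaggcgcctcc
In Ctsd the core begins at positions -245 and -98 from the start, and in Ctsa at -12 and 6. Of the 8 members with a window, CACGTG was found in 4, the others being Ctsf at -79 and Ctsl at -236. Over all annotated genes with a window, 8.09% held CACGTG, and 4.29% held the longer form. The AP-1 motif, which 8.97% of genes held, was in none of the members' windows. CACGTG was in the windows of Ctsa, Ctsd and Ctsf, which were lower with DPhP, and of Ctsl, which overlapped control. It was in none of the windows of Ctsk, Ctss and Ctsc, which were higher, nor in that of Ctsz, which was lower. Ctsb and Ctsh, also lower with DPhP, had no window to search. A link between the motif and the direction of change was not tested.

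The remaining members were lower in every DPhP library than in every control library. Ctsz, a carboxypeptidase also called cathepsin X, measured 251.27, 253.63 and 237.37 FPKM in control, 245.35, 235.28 and 244.40 FPKM with TPhP, and 167.98, 168.02 and 166.64 FPKM with DPhP. Ctsf, an endopeptidase with a long propeptide, measured 20.04, 19.81 and 19.94 FPKM in control, 19.89, 21.58 and 19.51 FPKM with TPhP, and 12.79, 13.02 and 14.27 FPKM with DPhP. In both genes the DPhP mean was below control, by 32.3% for Ctsz (log2 -0.56 ± 0.03 SE) and by 33.0% for Ctsf (-0.54 ± 0.05), and the TPhP libraries overlapped control. Ctsh, an aminopeptidase, measured 163.25, 160.62 and 165.32 FPKM in control, 169.94, 167.45 and 170.17 FPKM with TPhP, and 118.71, 119.25 and 120.58 FPKM with DPhP. Its DPhP mean was 26.7% below control, and its TPhP libraries were all slightly above control, by 3.8% of the mean. Ctsa, the carboxypeptidase that also protects neuraminidase and beta-galactosidase in the lysosome, measured 219.98, 213.24 and 214.56 FPKM in control, 219.52, 224.57 and 215.28 FPKM with TPhP, and 183.05, 177.35 and 182.57 FPKM with DPhP. Its DPhP mean was 16.2% below control and its TPhP libraries overlapped control.

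**Figure D2:**
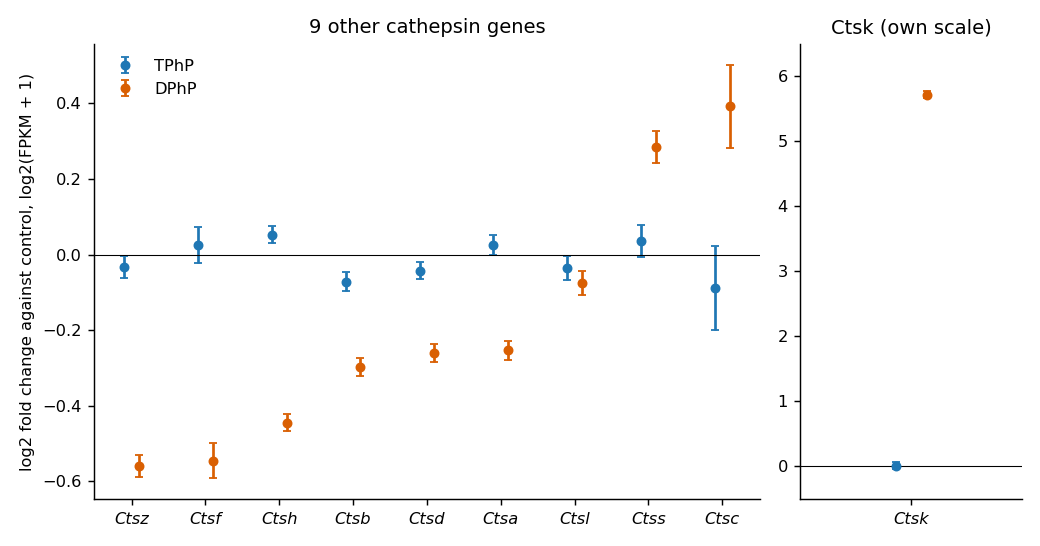
Difference from control in log2(FPKM + 1) for TPhP and DPhP, with the SE of the fit as bars (n = 3 libraries a group); Ctsk has its own scale on the right. With DPhP, 6 genes lie between -0.56 and -0.25, Ctsl lies at -0.08 (above 0 after 2 other scalings), Ctss and Ctsc lie at 0.29 and 0.39, and Ctsk at 5.72, while the TPhP differences lie between -0.09 and 0.05.

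With DPhP, 3 of the 10 members were called higher (Ctsk, Ctss and Ctsc) and 6 lower (Ctsa, Ctsb, Ctsd, Ctsf, Ctsh and Ctsz) by limma at an adjusted p under 0.05, while Ctsl was not called. Of all 12369 tested genes, 33.1% were called higher and 37.9% lower, and, since the members were chosen with these values known, their counts are a description. The same members were those whose DPhP and control libraries did not overlap, against 34.3% of all genes above control and 39.1% below it. The median log2 difference was -0.26 over the 10 members and -0.02 over all tested genes. With TPhP none of the 10 members was called by limma, and 2 had an unadjusted p under 0.05. The background was 2.58% of genes called higher and 3.64% called lower. The TPhP libraries lay wholly above control for Ctsh and wholly below it for Ctsb and Ctsd, where 15.1% of all genes lay wholly above control and 12.2% below it. The median difference was -0.01 over the members and 0.01 over all tested genes. Both comparisons use the same control libraries. Set directly against DPhP, the TPhP libraries were called higher in 6 members and lower in 3, with a background of 37.8% higher and 30.9% lower. Since neither dose is known, this compares the libraries and not the compounds at a matched dose.

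The order of the cathepsins by level changed with DPhP. In control it ran Ctsd, Ctsb, Ctsl, Ctsz, Ctsa, Ctss, Ctsh, Ctsf, Ctsc and Ctsk. Each neighbour in that order was separated in every library except Ctsa and Ctss, whose libraries overlapped. Ctsd and Ctsb were barely apart, with 1648.23 against 1646.85 FPKM in their nearest control libraries. Their order is thus open to the uncertainty in the level of Ctsd given above. The TPhP libraries gave the same order with the same overlap. With DPhP it ran Ctsd, Ctsb, Ctsl, Ctss, Ctsa, Ctsz, Ctsh, Ctsk, Ctsc and Ctsf, with no overlap between neighbours, so that Ctss had passed Ctsa and Ctsz, Ctsc had passed Ctsf, and Ctsk had passed both Ctsc and Ctsf. The FPKM of the 10 genes summed to between 5095 and 5149 in the control libraries, between 4948 and 4998 with TPhP and between 4402 and 4533 with DPhP. That was 1.20% to 1.21% of all FPKM in control, 1.18% to 1.19% with TPhP and 1.10% to 1.13% with DPhP. Ctsk made up 0.00707% to 0.00816% of the cathepsin sum in control, 0.00641% to 0.00930% with TPhP and 1.61% to 1.63% with DPhP. Ctsd, Ctsb and Ctsl together still made up 81.1% to 81.6% of the sum with DPhP, against 83.0% to 83.1% in control.

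The whole table differed far more with DPhP than with TPhP, with 8782 genes called against 769. Total FPKM was 421963 to 428928 in the control libraries, 419107 to 422363 with TPhP and 398680 to 401930 with DPhP, and after rescaling to a common sum the split of DPhP calls went from 4089 higher and 4693 lower to 5216 and 3728. All 9 called members kept their direction and their call under that scaling. The falls became smaller, such as Ctsa from -0.25 to -0.17 and Ctsd from -0.26 to -0.18 in log2. The rises became larger, such as Ctss from 0.29 to 0.37. By limma, 33.1% of all 12369 tested genes were called higher with DPhP and 37.9% lower. The labelled cell type was checked against 9 Leydig cell genes, of which 7 were tested. Their summed FPKM was 1694 to 1810 in control, 1789 to 1861 with TPhP and 329 to 343 with DPhP, and 6 fell with DPhP, such as the hormone gene Insl3 from 537 ± 17.2 to 11.3 ± 1.02 FPKM (n = 3; log2 -5.45, limma adjusted p = 1.4e-14). Cyp17a1 and Hsd17b3, enzymes of testosterone synthesis, were near 0 in all groups, at 0.137 and 0 FPKM on average in control.

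**Figure D3:**
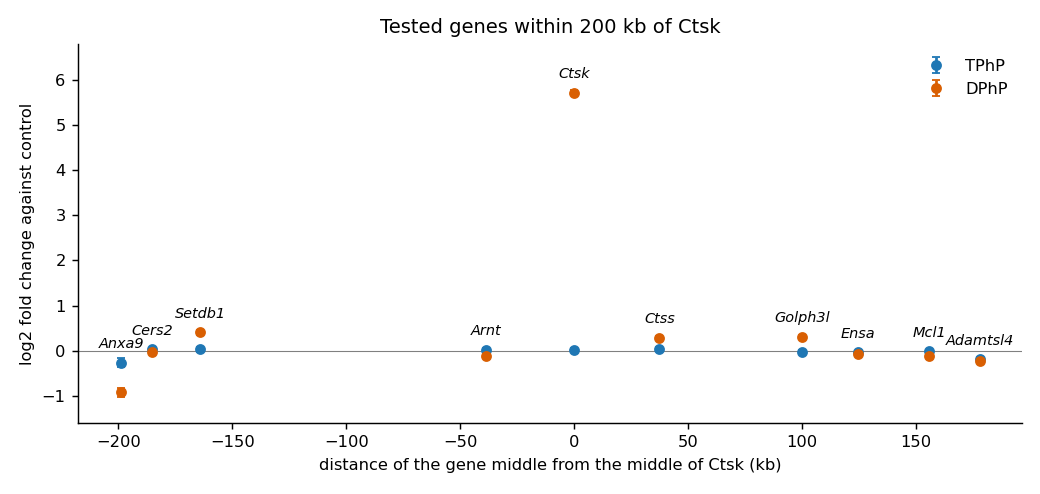
Difference from control in log2(FPKM + 1), with SE bars, of the tested genes within 200 kb of Ctsk, by the distance of their middle from that of Ctsk in kb (n = 3 libraries a group). Ctsk stands at 5.72 with DPhP, and the other genes lie between -0.92 and 0.40.

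The genes around Ctsk did not share the size of its difference. The reference annotation placed 20 other genes within 200 kb, and 8 besides Ctss were tested. With DPhP, 2 rose and 4 fell, where 33.1% of all tested genes were called higher and 37.9% lower. The histone methyltransferase gene Setdb1 rose from 12.5 ± 0.415 to 16.9 ± 0.743 FPKM (n = 3; log2 0.40, limma adjusted p = 2.5e-05), and Golph3l, related to a Golgi phosphoinositide-binding protein, rose by 0.31 on the log2 scale (adjusted p = 2.7e-06, limma). The annexin gene Anxa9 fell by 0.92 (adjusted p = 5.9e-06) and Adamtsl4, a matrix protein related to the ADAMTS proteases, by 0.23 (adjusted p = 0.0014). Arnt, a bHLH-PAS transcription factor that ends 1970 bases before Ctsk, fell by 0.13 and the anti-apoptotic gene Mcl1 also by 0.13, but both calls were lost after rescaling to a common sum and after quantile normalization. Cers2 and Ensa were not called, at -0.03 and -0.06. With TPhP the differences of these 8 genes lay between -0.26 and 0.03, and Adamtsl4 was called lower (log2 -0.19, limma adjusted p = 0.042), a call lost on leaving out any of the control or TPhP libraries.

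The genes with the pattern most like that of Ctsk were found by the root mean square difference from it over the 9 libraries, in log2(FPKM + 1) less the control mean. Predicted genes, named with Gm or Rik, were not considered by the rule. Of the rest, the nearest 5 were Cck at 0.995, Ifi204 at 1.27, Mfap4 at 1.50, Emb at 1.58 and Sfrp1 at 1.59. Of the genes left out, Gm7429 was nearer than all of these at 0.701, and Gm46620 at 1.53 stood between Mfap4 and Emb. By size of the DPhP rise, the 5 genes were also numbers 3, 4, 5, 7 and 8 of all tested genes. Nearness to Ctsk thus mostly followed the size of that rise. Being picked for likeness, these genes carry no test. Cck, which encodes the peptide hormone cholecystokinin, measured 0.24, 0.28 and 0.26 FPKM in control, 0, 0.09 and 0.08 FPKM with TPhP, and 18.72, 18.62 and 21.12 FPKM with DPhP. Like Ctsk it lay near 0 in both other groups. Ifi204, an interferon-inducible gene, had means of 10.5 FPKM in control, 8.71 FPKM with TPhP and 132 FPKM with DPhP. Mfap4, a protein of elastic fibres, Emb, a membrane glycoprotein, and Sfrp1, a secreted Wnt antagonist, had DPhP means of 62.0, 26.6 and 112 FPKM against control means of 6.18, 2.50 and 13.4 FPKM.

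**Figure D4:**
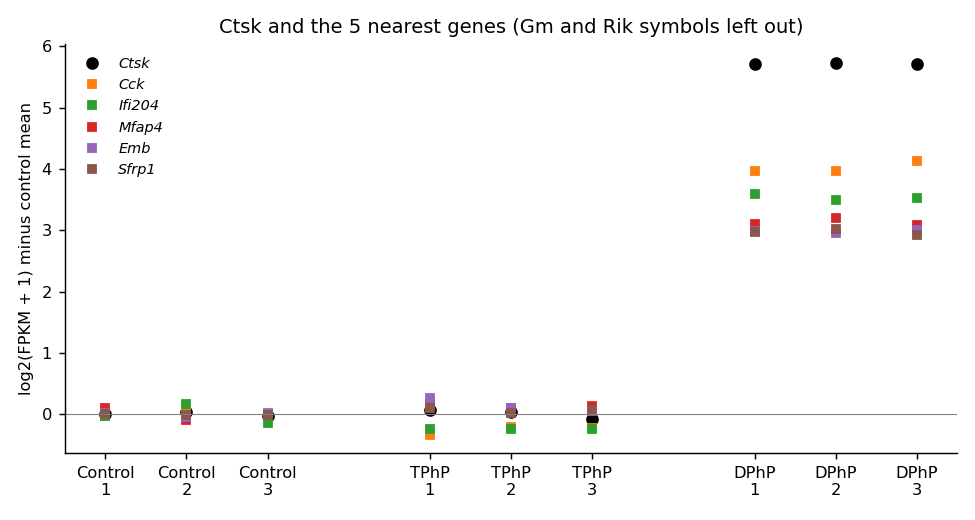
log2(FPKM + 1) less the control mean for Ctsk and the 5 genes with the smallest root mean square difference from it when Gm and Rik symbols are left out, in each library. The Ctsk points lie above those of these 5 genes in all 3 DPhP libraries, and all 6 genes lie near 0 in control and TPhP libraries.

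Few of the other cathepsin genes were expressed. Of 16 listed, 8 were in the table and 3 were tested. Ctso, a cysteine protease, fell with DPhP from 17.0 ± 0.479 to 14.2 ± 0.597 FPKM (n = 3; log2 -0.25, limma adjusted p = 0.00013). Ctse, an aspartic protease of endosomes, had means of 1.47 ± 0.0569 FPKM in control and 0.080 ± 0.0529 FPKM with DPhP (n = 3, log2 -1.20). It reached 1 FPKM only in the control and TPhP libraries, the groups where it was high, so no p-value is given for it. Tinagl1, a cathepsin-like matrix protein without protease activity, rose slightly with DPhP (log2 0.16, limma adjusted p = 0.0081). With TPhP it was called lower (-0.20, adjusted p = 0.025), a call lost without control replicate 1 or 3 or without TPhP replicate 1 or 2.

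Of 26 listed inhibitors of cathepsins, 22 were in the table and 10 were tested. With DPhP 4 rose and 5 fell, where 33.1% of all tested genes were called higher and 37.9% lower. The median log2 difference of the 10 was -0.28. Among them, the 3 most abundant were lower. Cystatin C (Cst3), the main secreted cystatin, fell from 832 ± 29.9 to 469 ± 16.8 FPKM (n = 3; log2 -0.83, limma adjusted p = 1.2e-09). Cystatin B (Cstb), the cytosolic inhibitor, fell by 0.51 (adjusted p = 5.2e-07) and the serpin Serpinb6a by 0.38 (adjusted p = 9.0e-08). Cst8, a cystatin of the reproductive tract, fell by 1.86 and Ahsg, which encodes fetuin-A, by 2.25. Ahsg reached 1 FPKM only in the control and TPhP libraries, so it was tested only through the groups where it was high. Those that rose were low in control: Cst12 (log2 1.46), the kininogen gene Kng2 (1.35), and Ctla2b (1.05) and Ctla2a (0.33), which resemble cathepsin propeptides. With TPhP 1 of the 10 was called, the serpin Serpina3g, where 2.58% of all tested genes were called higher and 3.64% lower. Serpina3g fell with TPhP from 29.2 ± 4.28 to 19.6 ± 0.764 FPKM (n = 3, log2 -0.54, limma adjusted p = 0.0019). It was not called with DPhP (-0.18). Serpina3g and the Ctla2 genes belong to families with close copies, among which the counting could have divided reads. The summed inhibitor FPKM was 1429 to 1496 in control, 1449 to 1488 with TPhP and 933 to 979 with DPhP. Cst3 was the largest part of this sum, at a mean of 832 FPKM in control and 469 FPKM with DPhP. The summed cathepsin FPKM above was also lower with DPhP.

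Among all tested genes, 33.1% were called higher with DPhP and 37.9% lower. Of 22 tested genes for the maturation and sorting of lysosomal proteases, 8 rose and 11 fell with DPhP, with a median of -0.11. Those that rose included the mannose 6-phosphate receptor Igf2r, from 27.2 ± 1.11 to 41.0 ± 0.718 FPKM (n = 3; log2 0.58, limma adjusted p = 2.3e-08). Among those that fell were Neu1, the neuraminidase that Ctsa protects (-0.65), and prosaposin, Psap (-0.48). With TPhP, Gga2 was called higher (0.15) and Gga1 lower (-0.16), both adaptors of receptor traffic; each call was lost on leaving out any 1 of several libraries, among them each control library.

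The DPhP background was 33.1% of all tested genes called higher and 37.9% lower. Of 40 lysosomal hydrolases and membrane proteins, all tested, 8 rose and 19 fell with DPhP, with a median of -0.04. This split depended on the scaling: rescaling to a common sum gave 17 higher and 17 lower, and quantile normalization 16 and 17, with medians of 0.04 in both. Acp5, the tartrate-resistant acid phosphatase, fell by 1.07 (limma adjusted p = 4.0e-10), the fucosidase Fuca1 by 0.71, the mannosidase Man2b1 by 0.57 and the glucosaminidase Naglu by 0.56. With TPhP, 7 of the 40 rose and none fell, where 2.58% of all tested genes were called higher and 3.64% lower. The medians were 0.06 for the list and 0.01 for all tested genes. The ceramidase Asah1 rose from 97.7 ± 1.65 to 114 ± 2.10 FPKM (n = 3; log2 0.22, limma adjusted p = 0.00048), and Creg1 rose by 0.16 (adjusted p = 0.0036). The calls of Ctns, Gla, Hexa and Scpep1 were each lost on leaving out TPhP replicate 2 and at least 1 control library, and the count of rises ranged from 2 to 10 over the alternatives. None of the 10 cathepsins was called with TPhP.

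Among 18 tested regulators of lysosomal genes, 2 rose and 8 fell with DPhP (median -0.06), which became 6 and 5 (median 0.02) after rescaling to a common sum. Before that rescaling, 33.1% of all tested genes were called higher and 37.9% lower. The transcription factor Tfeb fell from 7.25 ± 0.215 to 4.41 ± 0.378 FPKM (n = 3; log2 -0.61, limma adjusted p = 7.8e-06), while its relatives Tfe3 and Mitf were not called (-0.0049 and 0.06). The lysosomal channel gene Mcoln1 fell by 0.54, and Ppp3cb, a calcineurin subunit, rose by 0.49. Rragd, a GTPase that signals to mTORC1 from the lysosome, fell by 0.74 with DPhP (adjusted p = 2.0e-08, limma) and rose by 0.28 with TPhP (adjusted p = 0.0019). Rragc (0.19), Fnip2 (0.23) and Mcoln1 (0.19) also rose with TPhP, the call of Mcoln1 being lost without control replicate 2 or 3 or without TPhP replicate 1 or 2.

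Listed regulators of Ctsk, which include receptors and signalling genes such as Tnfrsf11b beside transcription factors, did not move one way. Of 15 tested, 4 rose and 9 fell with DPhP, against 33.1% higher and 37.9% lower among all tested genes. The median of the 15 was -0.19. Spi1, the myeloid factor PU.1, fell from 23.4 ± 0.627 to 12.9 ± 0.443 FPKM (n = 3; log2 -0.81, limma adjusted p = 4.6e-09). The AP-1 genes Fos (-0.91) and Jund (-0.66) fell as well. Nfatc1, the osteoclast factor that acts on the Ctsk promoter, rose from 3.78 ± 0.113 to 4.93 ± 0.160 FPKM (n = 3; log2 0.31, limma adjusted p = 0.00025). Runx2 (0.44) and Ahr (0.47) also rose with DPhP. Tnfrsf11b, the decoy receptor osteoprotegerin, rose by 1.30 (limma adjusted p = 2.0e-08). The ligand it binds, Tnfsf11, was at 0 FPKM in every library but DPhP replicate 1, where it was at 0.02 FPKM. With TPhP, Spi1 fell (-0.18, adjusted p = 0.018) and Runx2 rose (0.20, adjusted p = 0.033), and both calls were lost without control replicate 2 or 3 or without TPhP replicate 1 or 2.

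Most genes of a list of matrix proteins, matrix proteases and a collagen receptor were higher with DPhP. Of 16 tested, 14 rose and 2 fell, with a median of 0.66, where 33.1% of all tested genes were called higher and 37.9% lower. Among the 12 that encode matrix proteins 11 rose and 1 fell, and among the 4 others 3 rose and 1 fell. The collagen gene Col1a1 rose from 476 ± 7.20 to 1342 ± 42.9 FPKM (n = 3; log2 1.49, limma adjusted p = 8.4e-12) and Col1a2 by 1.19, the proteoglycan Bgn rose by 1.61 and the collagen uptake receptor Mrc2 by 1.39. Those that fell were Col4a1 (-0.28) and Mmp13 (-0.65), an interstitial collagenase. With TPhP, Mrc2 was called higher (0.15), and Mmp2 (-0.17) and Col3a1 (-0.13) were called lower; each call was lost without control replicate 1 or without TPhP replicate 2.

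**Figure D5:**
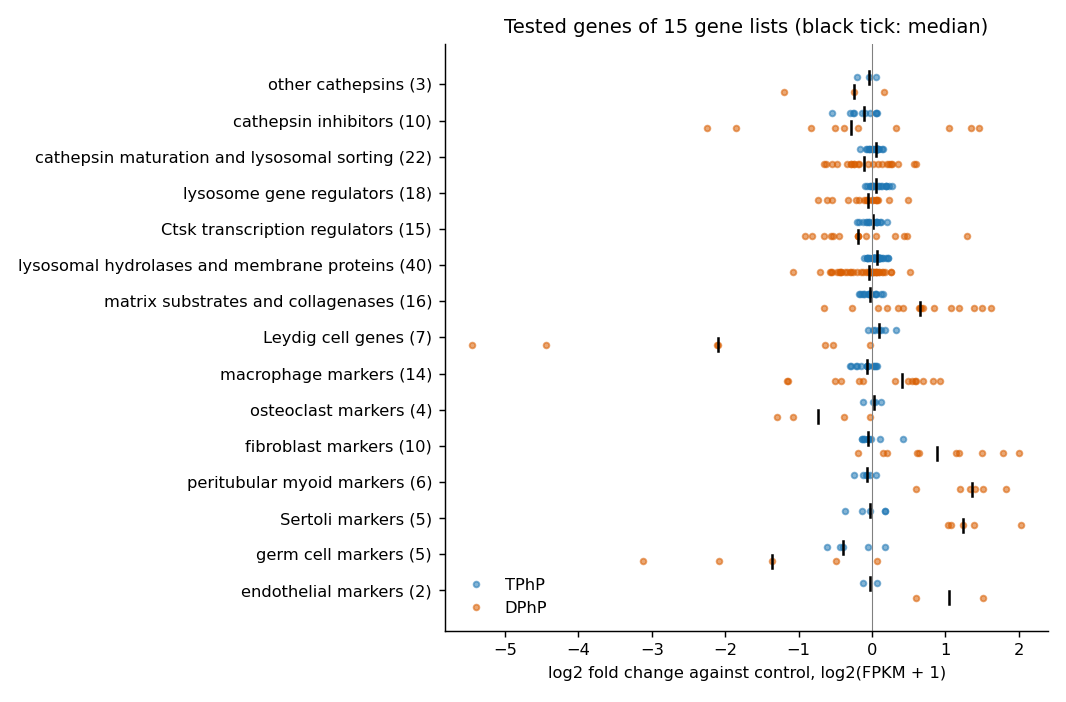
Difference from control in log2(FPKM + 1) of each tested gene of 15 lists (points) with the list median (black tick), for TPhP and DPhP; the number of tested genes stands in brackets. With DPhP the medians lie at 0.66 for matrix substrates and collagenases, 0.89 for fibroblast markers and -2.09 for Leydig cell genes, and between -0.28 and -0.04 for the 6 cathepsin and lysosome lists at the top, of which the lysosomal hydrolases and the lysosome gene regulators turned positive after rescaling to a common sum.

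Markers of other cell types moved with DPhP alongside Ctsk, and their part in its difference was not tested. The counts stand beside 33.1% of all tested genes called higher with DPhP and 37.9% called lower. Of 10 fibroblast markers 9 rose and none fell, and their summed FPKM was 3913 to 3943 in control, 3593 to 3712 with TPhP and 6970 to 7137 with DPhP. Several of them, such as Col1a1, are also in the matrix list. All 6 peritubular myoid markers rose (sum 599 to 668 in control, 589 to 624 with TPhP and 1553 to 1613 with DPhP), as did all 5 tested of 8 Sertoli markers (27.0 to 29.6, 26.0 to 28.6 and 81.3 to 87.0) and both tested of 5 endothelial markers (11.2 to 12.1, 11.9 to 12.6 and 31.3 to 32.3). The endothelial marker Cdh5 reached 29.82 FPKM in a DPhP library, which was most of the endothelial sum there. Of 5 tested of 7 germ cell markers, 4 fell (17.8 to 24.7, 14.9 to 21.6 and 3.77 to 4). No defining marker of these lists was at 0 in all libraries, but several stayed near 0: at most 0.45 FPKM for Amh and 0.19 for Fshr (Sertoli), 0.31 for Pecam1 (endothelial), and 1.61 for Ddx4 and 1.03 for Dazl (germ cell). With TPhP, 2.58% of all tested genes were called higher and 3.64% lower. Among the listed genes, 1 Leydig gene (Hsd3b6) and 1 fibroblast marker (Dpt) were called higher with TPhP. Called lower were 1 fibroblast marker (Col3a1), 1 Sertoli marker (Wt1) and 2 of the 5 tested germ cell markers (Zbtb16 and Ddx4).

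Macrophages and osteoclasts, where Ctss and Ctsk are well known, were looked at in the same way, beside the same background of 33.1% higher and 37.9% lower. Of 14 tested macrophage markers 8 rose and 5 fell, among them Lyz2 (log2 0.50) and Mrc1 (0.54) upward, and Itgam (-1.15) and Tyrobp (-1.16) downward, and the sum over the list was 1424 to 1450 in control, 1362 to 1373 with TPhP and 1727 to 1849 with DPhP. Lyz2 made up most of that sum, and without it the direction turned: the other 14 markers summed to 371 to 378 in control, 351 to 360 with TPhP and 299.5 to 304.5 with DPhP. Of the defining macrophage markers, Adgre1 was higher with DPhP (0.31), and Csf1r (-0.43) and Ptprc (-0.50) were lower. With TPhP, Csf1r (-0.22) and Cx3cr1 (-0.30) were called lower and none higher. The TPhP background was 2.58% of all tested genes called higher and 3.64% called lower. The call of Cx3cr1, like that of Ddx4 above, was lost without control replicate 2 or TPhP replicate 2. Of 8 osteoclast markers 7 were in the table and 4 were tested; 3 fell (Acp5, Dcstamp and Atp6v0d2) and none rose, and none was called with TPhP. Their sum was 65.7 to 66.8 in control, 68.9 to 70.8 with TPhP and 42.1 to 44.3 with DPhP. The defining osteoclast genes Dcstamp and Ocstamp reached at most 3.97 and 0.73 FPKM in any library. Both had lower means with DPhP, though Ocstamp was near 0 in every group. The part of macrophages or osteoclasts in the Ctsk difference was not tested.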

How the data were processed

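RNA sequencing values of 9 libraries (3 control, 3 TPhP, 3 DPhP) were used. The authors deposited 1 table of FPKM values to 2 decimals for 19058 genes. Per the labels' protocols, RNA was extracted with Trizol and mRNA enriched on oligo(dT) beads. Per the submitters' processing notes the build was GRCm38.p6. The sources used here name no aligner, counting tool, annotation, filter or strand setting, so reads of overlapping genes could not be told apart.

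Values were analysed as log2(FPKM + 1). The 12369 genes, including the 10 members, that reached 1 FPKM in 3 or more libraries entered 1 limma 3.58.1 fit (R 4.3.3; all 9 libraries, a mean per group, variance trend, 6 residual degrees of freedom), two-sided, with Benjamini-Hochberg adjustment per comparison over all tested genes and a threshold of 0.05. The fit was tested on simulated data. The members and the 15 gene lists were chosen with earlier results of these data known, so no set test was run. Named genes were all members, other cathepsins and inhibitors with at least 1 FPKM in a group, tested genes within 200 kb of Ctsk, the 5 genes nearest to it in pattern (symbols with a Gm number or Rik name left out), and up to 4 called genes with the smallest p from each other list; Gm7429, Gm46620, Gm49369, Tnfsf11, Ocstamp and a few further members of lists were named after their values were seen. Some genes that the rule names are not reported here.

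Positions and promoter windows are from RefSeq (GRCm38.p6), which held 99.7% of the identifiers. A RefSeq protein table was planned for identity; coding sequences of GENCODE M21 were translated and aligned instead (BLOSUM62, gap open 10, extend 0.5, Biopython 1.88). Unique 75-base stretches are from the same transcripts. Python 3.11.15, pandas 2.3.3, numpy 2.4.6 and matplotlib 3.10.9 were used. Alternatives were pseudocounts of 0.1 and 0.5, no filter, a mean of at least 5 FPKM, 3 scalings, a replicate block, a fit to the 6 libraries compared, no variance trend, and leaving out each library.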

Additional observations from a re-analysis of the deposited data

How the results depend on the processing

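Under all 19 alternatives the 9 members called with DPhP kept their direction and call, and no member was called with TPhP. Ctsl was called with DPhP in 5 of the 19: a pseudocount of 0.1, a mean of at least 5 FPKM, the replicate block, and without TPhP replicate 2 or DPhP replicate 2, so that the count was 9 or 10. The log2 difference of Ctsk with DPhP was 7.21 and 6.35 with pseudocounts of 0.1 and 0.5, 5.78 after rescaling to a common sum and 5.82 after quantile normalization, and 5.70 to 5.73 on leaving out a library. The share of Ctsk in the cathepsin sum with DPhP was 1.66% after quantile normalization and 1.62% to 1.63% on leaving out a library, against 1.62%. For the other 9 members, 24 values moved by more than the spread between libraries, all under the 3 scalings, and 318 did not; Ctsl turned positive with DPhP under 2 of these scalings.

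Genes called with TPhP numbered 769, and 413 to 775 on leaving out a library: 504 and 444 without control replicate 1 or 2, 436 and 413 without TPhP replicate 1 or 2. Same-numbered libraries of different groups deviated with correlations of -0.12 to 0.10, other pairs with -0.13 to 0.09. Such weak and overlapping values, from 3 libraries a group, cannot show whether the numbers pair the libraries. With the replicate block 663 genes were called for TPhP and 8711 for DPhP, and 10 members for DPhP. Without read depth, the precision of low values such as Ctsk in control is unknown.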
